A study of Homo sapiens with 6 samples.

Results

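The comparison described here sets 2 libraries against 2 others, out of 6 in the series, across 15386 tested genes. The 2 libraries carry count columns named KD+E, and their sample titles describe ELK3-knockdown cells given the control vector. The other 2 are the control libraries, with columns named 231C_1 and 231C_2. Members were chosen by the column names alone. All samples are labelled as MDA-MB-231, an established human line of triple-negative breast cancer. The control cells carry the word control as both genotype and transfection, with no plasmid, dose or time recorded, and whether they hold a control hairpin or received transfection reagent is not stated. The labelled knockdown is stable, made with a retrovirus that expresses a short hairpin RNA against ELK3, and the cells of the KD+E libraries are labelled as carrying it together with pLenti-cMyc-DDK, 1 µg, transfected by lipofection and harvested after 48 hours. The remaining pair of libraries, columns named KD, is titled as the same knockdown cells with pLenti-cMyc-DDK-ELK3, 1 µg, for 48 hours, and is used only for comparison. The 2 names of each transfected pair disagree, because a column named KD+E reads as knockdown plus ELK3 while its title says knockdown plus vector. The KD+E libraries are therefore called the libraries labelled vector, or vector-labelled, and the KD libraries ELK3-labelled, after the titles, and no direction below is ascribed to a known dose of ELK3. The labels do not say whether the 2 libraries of a group came from separate cultures, so p-values measure the spread between these libraries, which may be technical.

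ELK3 belongs to the ternary complex factors, ETS-family proteins that sit on DNA beside serum response factor (SRF). Phosphorylation by ERK converts them into activators of immediate early genes, and without it ELK3 is known chiefly as a repressor. Myocardin-related factors (MKL1 and MKL2) compete for the same SRF surface and drive genes of the actin cytoskeleton. ETS proteins as a family recognise a GGAA core, and many promoters of genes that every cell uses carry it. In MDA-MB-231 cells, which have an activated RAS-ERK pathway and mesenchymal features, ELK3 has been studied for migration and invasion, and the title of the series concerns natural killer (NK) cells and mitochondrial dynamics.

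The controls were sequenced to 5087967 and 5028028 counts and the vector-labelled libraries to 6669969 and 4884483, with 17976 to 20360 gene symbols detected. Levels are CPM, read counts scaled by library total and TMM factor, and a difference was called when edgeR's quasi-likelihood test gave a Benjamini-Hochberg adjusted p under 0.05. The libraries come from a kit that reads transcript ends, so a level is not divided by transcript length and levels are compared within a gene only. Between vector-labelled and control libraries 11117 genes passed, 72.3% of those tested, with 5688 higher (37.0%) and 5429 lower (35.3%). At least 2-fold higher were 3649 genes (23.7%) and at least 2-fold lower 2984 (19.4%). At least 8-fold higher were 1028 genes (6.68%), against 299 (1.94%) at least 8-fold lower. Both vector-labelled values lay above both controls in 43.9% of genes and below both in 40.6%. The median log2 fold change over all tested genes was 0.05 and its median size 0.85. Where 2 values follow a gene in brackets they are the means of the control and then the vector-labelled libraries. With this background a single call or a list in which most genes passed is common, and each list below is read against these shares. Against the ELK3-labelled libraries, 9174 genes passed (59.6%), with 4559 higher (29.6%) and 4615 lower (30.0%). At least 2-fold higher were 1901 (12.4%) and lower 1593 (10.4%), and at least 8-fold higher were 331 (2.15%) against 9 (0.0585%) lower. That comparison shares the vector-labelled libraries with the one against controls, so its values are given side by side and not as separate support.

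**Figure D1:**
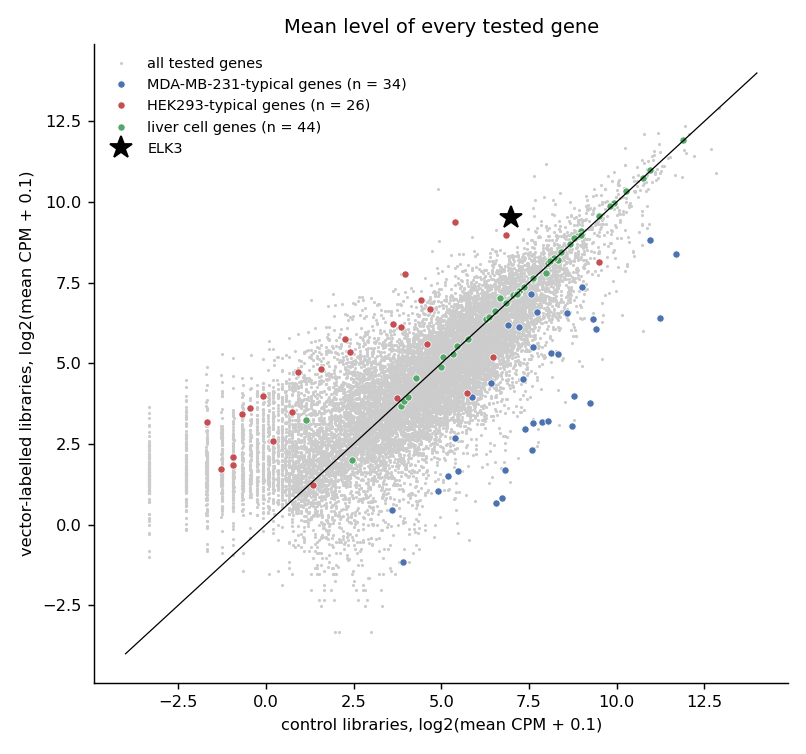
Mean level of each tested gene in the 2 control libraries (x axis) and the 2 vector-labelled libraries (y axis), both as log2(mean CPM + 0.1), with the line of equal level. The 34 genes typical of MDA-MB-231 lie below the line, most of the 26 HEK293-typical genes above it, the 44 liver cell genes on or near it, and ELK3 above it.

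ELK3 was higher in the vector-labelled libraries than in the controls, opposite to what a knockdown label states. The control libraries held 129 and 124 CPM, the vector-labelled libraries 759 and 697 CPM and the ELK3-labelled libraries 20.4 and 22.6 CPM. All 3 pairs were apart, with the highest ELK3 in the libraries titled knockdown plus vector and the lowest in those titled knockdown plus ELK3. The log2 fold change against control was 2.53 ± 0.09 (SE, adjusted p = 1.6e-22). In the GENCODE 29 annotation of GRCh38 the gene lies at chr12:96194382-96269835 on the plus strand. Reads were counted per gene, and whether these come from the endogenous gene or a plasmid was not tested. The column names would place plasmid-borne ELK3 in the vector-labelled libraries, and the titles would not. The counts hold no label that settles which name is right.

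The genes grouped with ELK3 moved in both directions. All 6 tested members of the group of ternary complex factors, SRF and its cofactors were called, 3 higher, of which ELK3 itself is 1, and 3 lower. SRF itself, which anchors the complex on DNA, stood at 228 and 342 CPM in the controls and 91.2 and 83.8 CPM in the vector-labelled libraries. Both vector-labelled values lay below both controls, and the log2 fold change was -1.70 ± 0.18 (adjusted p = 1.77e-05). ELK4, another ternary complex factor, fell from 37.2 ± 5.11 to 14.3 ± 0.707 CPM (SD, n = 2), and ELK1 from 61.1 ± 1.8 to 49 ± 0.867 CPM. The cofactors rose, MKL2 from 6.9 ± 0.886 to 22.2 ± 2.25 CPM and MKL1 from 8.7 ± 1.07 to 12.6 ± 1.17 CPM. Myocardin (MYOCD) was too low to test. The calls of MKL1 and ELK1 depended on single libraries. Without control replicate 1 the adjusted p of MKL1 was 0.242, without control replicate 2 0.0568, without vector-labelled replicate 1 0.0578 and replicate 2 0.188, and without control replicate 2 that of ELK1 was 0.0531 (edgeR's quasi-likelihood test). Without either ELK3-labelled library MKL1 stood at the threshold (0.05), and DESeq2 called neither MKL1 (adjusted p = 0.162) nor ELK1 (0.0645), nor was ELK1 called with library totals (0.15) or the filter of 10 CPM in 2 libraries (0.0772), or MKL1 without a filter (0.0946).

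Among 16 other tested ETS factors, 2 rose, 11 fell and 3 were not called, with a median log2 fold change of -0.86. The 2 that rose were ETV7 and ELF1. ETV7, an ETS repressor related to ETV6, was at 2.3 and 2.37 CPM in the controls, 121 and 128 CPM in the vector-labelled and 4.45 and 4.78 CPM in the ELK3-labelled libraries. Its values in the vector-labelled libraries stood far above those of both other pairs, with a log2 fold change of 5.72 ± 0.18 against control. ELF1, an ETS factor best known from blood cells, was at 43.1 and 49.7 CPM in the controls, 145 and 131 CPM in the vector-labelled and 28.9 and 31.7 CPM in the ELK3-labelled libraries. The PEA3 factors, ETV1, ETV4 and ETV5, act downstream of ERK, and all 3 fell against control, ETV4 (23.3 to 2.36 CPM), ETV1 (41.4 to 12.6 CPM) and ETV5 (97.4 to 71 CPM). ETV5 nevertheless stood at 73.2 and 68.8 CPM in the vector-labelled libraries against 6.04 and 4.997 CPM in the ELK3-labelled ones. ETS1, which drives invasion genes, fell from 147 ± 8.64 to 47 ± 2.16 CPM, ETS2 from 104 ± 9.95 to 45.9 ± 0.601 CPM, and the repressors ERF (44.8 to 13.1 CPM) and ETV6 (35.7 to 8.47 CPM). The mean of GABPA, the ETS factor tied to nuclear genes for mitochondrial proteins, was 10.7 CPM in the controls and 14.4 CPM in the vector-labelled libraries and was not called. It was called higher with library totals (log2 fold change 0.55, adjusted p = 0.0256) and with the filter of 10 CPM in 2 libraries (0.52, adjusted p = 0.0343).

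**Figure D2:**
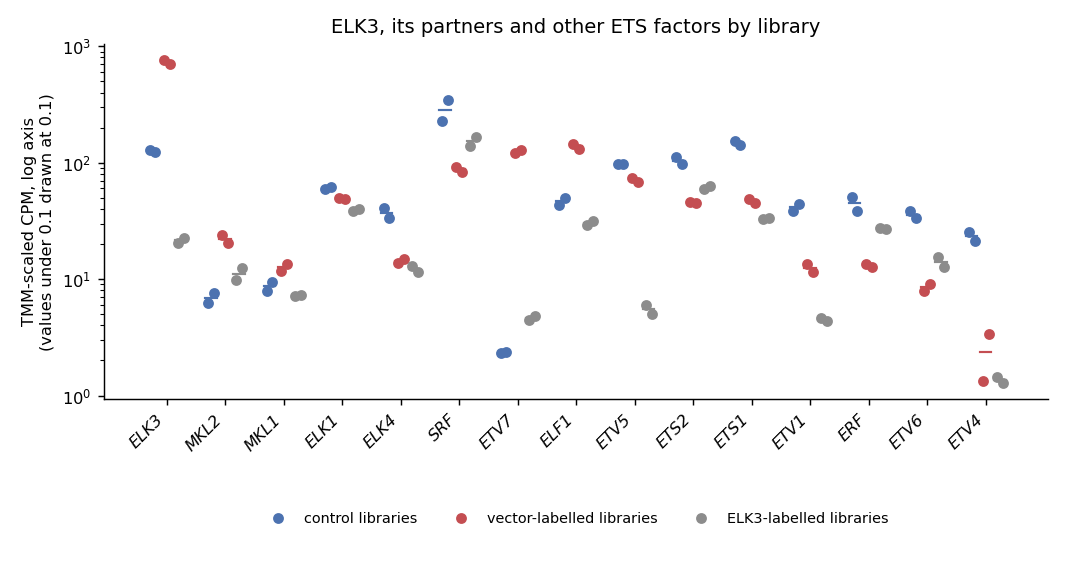
TMM-scaled CPM on a log axis in each library for ELK3, 5 other ternary complex factors, SRF or cofactors, and 9 other ETS factors, points being libraries and bars the mean of each pair. ELK3, ETV7 and ELF1 are highest in the vector-labelled libraries, and SRF, ETS1, ETV4 and ETV6 are lower there than in the controls.

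Actin cytoskeleton genes controlled by SRF were mostly lower. Of 30 tested genes of this group, 7 rose and 21 fell, with a median log2 fold change of -1.34. Promoters of 27 of them were matched in RefSeq (GRCh38.p14, 250 bases before to 50 after the start). A CArG box, the SRF element of the form CC, 6 bases of A or T, and GG, was found in 7 of the 27, against 1.12% of 11350 promoters of tested protein-coding genes. The genes were listed for their control by SRF, so this contrast describes the choice of list and not these libraries. Of the 7, 4 fell, 2 rose and 1 was not called, so genes with the box moved in both directions. Those that fell were ACTG1 (3712 to 1765 CPM), CNN2 (163 to 26.2 CPM), FHL2 (30.4 to 18.1 CPM) and TPM4 (812 to 139.5 CPM), those that rose FLNA (556 to 941 CPM) and FILIP1L (38 to 48.4 CPM), and ACTG2 was the one not called (3.39 to 4.598 CPM, log2 fold change 0.45). FILIP1L was not called without control replicate 1 (log2 fold change 0.19, adjusted p = 0.301), vector-labelled replicate 1 (0.092) or 2 (0.101), by DESeq2 (0.137) or without a filter on low counts (0.0511). Shown are the 250 bases before the start of EGR1, the immediate early gene through which the ternary complex was studied, and of CNN2, which encodes the actin-binding protein calponin 2, with the CArG boxes in capitals. A match describes these letters and shows no binding.
EGR1, chr5:138465229-138465478, plus strand: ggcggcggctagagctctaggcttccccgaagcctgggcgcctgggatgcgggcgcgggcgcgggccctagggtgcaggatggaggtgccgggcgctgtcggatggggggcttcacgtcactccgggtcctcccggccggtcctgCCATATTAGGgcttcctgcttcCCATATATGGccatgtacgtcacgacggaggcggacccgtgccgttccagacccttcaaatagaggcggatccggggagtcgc
CNN2, chr19:1026358-1026607, plus strand: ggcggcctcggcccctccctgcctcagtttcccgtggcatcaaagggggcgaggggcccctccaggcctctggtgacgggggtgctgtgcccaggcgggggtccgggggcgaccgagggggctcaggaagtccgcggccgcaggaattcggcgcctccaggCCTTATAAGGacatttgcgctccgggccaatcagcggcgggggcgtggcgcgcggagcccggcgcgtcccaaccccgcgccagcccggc

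EGR1 stood at 41.2 and 37.9 CPM in the controls, 28.1 and 22.8 CPM in the vector-labelled and 114 and 98.6 CPM in the ELK3-labelled libraries. Its log2 fold change against control was -0.62 ± 0.14 (adjusted p = 0.000159), and the vector-labelled pair was the lowest of the 3. CNN2 was at 167 and 159.6 CPM in the controls and 23.9 and 28.4 CPM in the vector-labelled libraries, a log2 fold change of -2.65 ± 0.11 without overlap. ACTG1, cytoplasmic gamma-actin, was at 3496 and 3928 CPM in the controls, 1852 and 1678 CPM in the vector-labelled and 5014 and 4803 CPM in the ELK3-labelled libraries. As with EGR1, the lowest pair was the vector-labelled one. Other members that fell with the largest changes were ACTN1 (764 to 78.6 CPM), TGFB1I1 (33.5 to 4.13 CPM), TPM4 (812 to 139.5 CPM) and ZYX (220.5 to 46 CPM), which encode actin crosslinking, focal adhesion and filament-stabilising proteins, and ANKRD1, which also responds to YAP, from 1136 ± 105 to 90.6 ± 3.95 CPM. Members that rose included FHL1 (10.4 to 77.4 CPM), FLNA (556 to 941 CPM), MYH10 (179.5 to 269 CPM) and ACTA2 (6.57 to 18.1 CPM).

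Immediate early genes, the transcripts that growth factors induce within minutes, split. Of 29 tested, 7 rose and 17 fell. FOSL1, the AP-1 subunit FRA1 that marks invasive breast cancer lines, was at 189 and 193 CPM in the controls and 4.995 and 4.8 CPM in the vector-labelled libraries (log2 fold change -5.27 ± 0.15). IER3 (1737 to 64.5 CPM), PHLDA1 (367 to 14 CPM), MYC (59.1 to 9.28 CPM) and FOSL2 (28.6 to 6.51 CPM) fell as well, none overlapping with the controls. ATF3, a stress-induced AP-1 family member, went the other way, from 47.3 and 44.3 CPM to 331 and 334 CPM, and was at 112 and 120.4 CPM in the ELK3-labelled libraries. FOS, FOSB and JUN also rose, FOS (9.45 to 19.3 CPM), FOSB (4.46 to 20.3 CPM) and JUN (360.2 to 487 CPM). Feedback inhibitors of ERK signalling, whose transcripts follow ERK activity, fell in 11 of 13 and rose in 1, with a median of -1.92. The phosphatases DUSP4, DUSP5 and DUSP6 fell by the most, DUSP5 (70.3 to 6.79 CPM), DUSP4 (70.8 to 8.68 CPM) and DUSP6 (136 to 17.4 CPM), followed by the Sprouty gene SPRY4 (24 to 3.14 CPM). DUSP1 was the single member that rose, from 27.3 ± 1.59 to 72.7 ± 2.81 CPM. YAP and TEAD factors and targets, which sense tension and cell density, had 12 lower and 1 higher of 16 (median -2.02), among them F3 (113 to 3.13 CPM), CYR61 (764 to 118 CPM), CTGF (234 to 31.2 CPM) and YAP1 (112 to 28.2 CPM). TEAD2 was the 1 that rose, from 57.3 ± 10.1 to 72 ± 0.309 CPM, and without control replicate 2 it was not called (adjusted p = 0.363). Against the ELK3-labelled libraries, the median of these YAP genes was -0.34 and that of the ERK feedback genes -0.27.

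Genes that mark MDA-MB-231 cells were low in the vector-labelled libraries. All 34 listed genes were tested, 34 fell and 0 rose, with a median log2 fold change of -3.31. Their summed level was 14510 and 14950 CPM in the control libraries, 1903 and 2003 CPM in the vector-labelled and 2013 and 2033 CPM in the ELK3-labelled libraries. This list, like the HEK293 list below, was drawn up with earlier results of these libraries known and is no independent evidence. PLAU, the urokinase that starts plasmin formation, stood at 431 and 423 CPM in the controls and 9.11 and 7.4 CPM in the vector-labelled libraries (log2 fold change -5.67 ± 0.13). AXL, a receptor kinase of mesenchymal cancer cells, was at 624 and 587 and 14.8 and 12 CPM in the same order (-5.48 ± 0.12). CXCL8, the neutrophil chemokine interleukin-8, was at 109 and 105 and 1.76 and 1.6 CPM (-5.97 ± 0.20). In all 3 genes every vector-labelled value was below every control. VIM, the mesenchymal intermediate filament, fell from 2001 ± 112 to 455 ± 12.5 CPM, the hyaluronan receptor CD44 from 282 ± 0.291 to 40.3 ± 3.34 CPM, EGFR from 161 ± 3.57 to 22.6 ± 0.587 CPM and caveolin-1 (CAV1) from 677 ± 9.45 to 66.5 ± 0.324 CPM. KRT18, also on the list, went from 148 ± 8.46 to 69.4 ± 3.39 CPM but was at 245 and 242 CPM in the ELK3-labelled libraries. Against the latter, 9 of the 34 genes were higher, 5 lower and the median difference was 0.09. The labelled knockdown, the plasmid and a difference of cell line cannot be told apart in the comparison with controls.

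Of 25 plasminogen activators, metalloproteinases and inhibitors, 18 fell and 5 rose. MMP14 (44.1 to 3.1 CPM), PLAUR (323 to 39.2 CPM) and ADAMTS6 (63.9 to 5.01 CPM) fell, encoding a membrane collagenase, the PLAU receptor and a secreted protease. Those that rose were MMP2 (0.639 to 6.48 CPM), ADAMTS1 (13.4 to 21.5 CPM) and TIMP3 (64.5 to 82.4 CPM), together with MMP7 and MMP13, which had 2 counts each over both controls. ADAMTS1 was not called without vector-labelled replicate 1 (adjusted p = 0.111). The MMP7 and MMP13 ratios were 22-fold (exact 95% counting interval 5.8 to 186) and 13.6-fold (exact 95% counting interval 3.48 to 117). Integrins and laminins, the receptors and sheets of the basement membrane, had 15 lower and 8 higher of 25. The lower ones included the integrin genes ITGA3 (215 to 5.83 CPM), ITGA2 (113 to 4.89 CPM) and ITGA6 (284 to 23.6 CPM) and the laminin chain LAMB3 (166 to 7.69 CPM), while the mean of the chain LAMA3 was 4.97 and 3.78 CPM and was not called. Higher were LAMA1 (0.642 to 10.7 CPM), LAMC3 (1.27 to 20.4 CPM), ITGA8 (0.953 to 13 CPM) and LAMA4 (1.38 to 14.9 CPM). S100 proteins and annexins, calcium-binding proteins of migrating cells, fell in 15 of 19 and rose in 1, with S100A6 (2432 to 84.8 CPM), S100A16 (198 to 9.56 CPM), S100A2 (103 to 7.15 CPM) and ANXA2 (1443 to 322 CPM). The 1 that rose was S100A1, from 1.17 ± 0.473 to 4.26 ± 1.04 CPM.

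Keratins, filaments of epithelial cells, fell in 8 of 10 tested genes, led by KRT7 at 99.1 and 88 CPM in the controls and 1.18 and 1.8 CPM in the vector-labelled libraries. The 2 that rose were KRT17 (0.639 to 6.7 CPM) and KRT8 (92.1 to 113 CPM), of which KRT8 lost its call without control replicate 2 or vector-labelled replicate 2 (adjusted p = 0.356 and 0.0552). Epithelial and mesenchymal genes did not move as 2 blocks, with 14 of 28 higher and 12 lower. The mesenchymal SNAI2 (18.7 to 0.914 CPM), VIM (2001 to 455 CPM) and ZEB1 (132 to 71 CPM) fell while SNAI1 (3.19 to 39.4 CPM), TWIST1 (0.633 to 6.21 CPM) and CDH2 (20.5 to 89.8 CPM) rose, and of the epithelial genes CLDN4 (109.9 to 3.75 CPM) and EPCAM (12.8 to 3.12 CPM) fell while ESRP1 (0.529 to 8.48 CPM), CDH3 (1.07 to 13.8 CPM) and JUP (10.4 to 98.9 CPM) rose. CLDN6 had 0 counts in both controls and 5.14 and 4.6 CPM in the vector-labelled libraries. Collagens and their crosslinkers had 15 higher and 13 lower of 30. The lower ones included COL13A1 (213 to 5.37 CPM), COL8A1 (105 to 3.28 CPM) and LOXL2 (149 to 22.9 CPM), and the higher ones COL6A1 (52 to 217 CPM), COL9A3 (7.11 to 22.8 CPM) and COL1A1 (13.6 to 37.1 CPM). Of 41 receptor tyrosine kinases and ligands, 14 rose and 19 fell. Among ligands of EGFR, the autocrine growth signal of many carcinoma lines, EREG (15.2 to 0.494 CPM), TGFA (19.6 to 1.42 CPM), AREG (41.7 to 4.004 CPM) and HBEGF (128 to 21.6 CPM) fell, and EGF (0.738 to 6.24 CPM) and BTC (0.427 to 6.81 CPM) rose. EPHA2 fell from 114 ± 1.05 to 14.6 ± 0.898 CPM and EPHA4 rose from 1.91 ± 0.0376 to 26 ± 0.603 CPM. In the TGF-beta and BMP pathway, 16 of 34 fell and 10 rose. NOG, the secreted BMP antagonist noggin, was at 60.2 and 50.5 CPM in the controls and 1.03 and 0.2 CPM in the vector-labelled libraries, the lowest log2 fold change (-6.31 ± 0.30) among called genes whose higher pair averaged 20 CPM or more. Other genes of the pathway list, TGFB2 (111 to 13.1 CPM), BMP4 (204 to 26 CPM), TGFBR2 (67.5 to 11.2 CPM) and SMAD3 (189 to 38.3 CPM), fell, and ID4 (4.45 to 40.02 CPM) and BMP7 (4.45 to 31.3 CPM) rose.

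Immune-related genes were mostly lower. NF-kappaB genes, chemokines and cytokines had 23 lower and 4 higher of 32 (median -2.27). IL6 fell from 14.9 ± 1.65 to 0.347 ± 0.0752 CPM, and CXCL1 (41.9 to 1.67 CPM), PTX3 (217 to 7.68 CPM), LIF (14.8 to 0.988 CPM) and ICAM1 (23.5 to 2.62 CPM) fell with it. The pathway's own components NFKB2 (117 to 29.9 CPM), RELA (142 to 52.5 CPM) and NFKBIA (266 to 95.3 CPM) were lower, whereas TNFAIP3, its feedback inhibitor A20, rose from 14.3 ± 0.768 to 51.7 ± 1.25 CPM. The other genes that rose were CXCL16 (15.7 to 32.2 CPM), SOD2 (72.7 to 127 CPM) and IL32 (66 to 98.9 CPM).

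Ligands of activating NK receptors and adhesion partners split, with 5 of 23 higher, 12 lower and 6 not called. MICA, which NKG2D on NK cells binds, was at 54.2 and 52 CPM in the controls, 5.29 and 3.8 CPM in the vector-labelled and 10.7 and 10.8 CPM in the ELK3-labelled libraries. MICB, another NKG2D ligand, fell from 109 ± 4.75 to 29.6 ± 3.07 CPM. ULBP1, a further one, rose from 1.57 ± 1.62 to 12.8 ± 0.821 CPM, and NCR3LG1, the B7-H6 ligand of NKp30, from 0.953 ± 0.131 to 9.72 ± 1.01 CPM. CADM1, the adhesion ligand of CRTAM, was at 31.4 and 27.5 CPM in the controls and 263 and 231 CPM in the vector-labelled libraries. The DNAM-1 ligands PVR (180.2 to 62.2 CPM) and PVRL2 (66 to 25.7 CPM) fell, and so did ICAM1 (23.5 to 2.62 CPM) and CD58 (21.1 to 6.8 CPM), the partners of LFA-1 and CD2. The 5 higher genes were CADM1 (29.4 to 247 CPM), CD70 (2.23 to 8.29 CPM), NCR3LG1 (0.953 to 9.72 CPM), TNFSF9 (2.98 to 12.2 CPM) and ULBP1 (1.57 to 12.8 CPM). NKG2D ligands moved in opposite directions, and neither the ligand list nor its NKG2D members had a common sign.

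HLA class I presentation genes fell in 16 of 24 and rose in 3. HLA-B fell from 391 ± 23.9 to 214 ± 13 CPM and B2M from 1373 ± 2.91 to 948 ± 7.69 CPM, while HLA-C was at 198 ± 9.14 and 228 ± 8.59 CPM and was called higher, like ERAP2 and CALR, CALR (817 to 1367 CPM) and ERAP2 (10.5 to 20.4 CPM). Leaving out control replicate 2 or either vector-labelled library ended that call (adjusted p = 0.261, 0.214 and 0.0685), as did leaving out either ELK3-labelled library (0.0546 and 0.0563), DESeq2 (0.0765) and no filter on low counts (0.169). With symbols on several lines left out, 8 of the list fell. Classical HLA genes lie on several lines of the files that were summed, and similar alleles can share reads, so these values are uncertain. The immunoproteasome genes PSMB8 (70.5 to 11.2 CPM) and PSMB9 (37.1 to 13.5 CPM) and the peptide transporter TAP1 (48.3 to 19 CPM) fell. Against the ELK3-labelled libraries, 8 of these 24 were higher and 2 lower. Inhibitory ligands and CD73 had 10 lower and 1 higher of 16, including NT5E (263 to 9.12 CPM), CD274 (11.9 to 1.26 CPM) and LGALS1 (642 to 83.5 CPM). NT5E encodes CD73, CD274 the checkpoint ligand PD-L1 and LGALS1 galectin-1. CD86 was the 1 that rose, from 0.848 ± 0.0167 to 3.28 ± 1.81 CPM, and without vector-labelled replicate 1 it was not called (adjusted p = 0.234). Interferon-stimulated genes had 23 lower and 6 higher of 39, with GBP1 (36.1 to 4.43 CPM), DDX58 (54.4 to 7.96 CPM) and IFITM3 (319 to 69.1 CPM) falling and USP18 (2.65 to 15.1 CPM), BST2 (22.6 to 124 CPM) and IFI6 (20.1 to 88.5 CPM) rising. Death receptors and their downstream genes, through which NK cells can kill, fell in 13 of 20 and rose in 2. The TRAIL receptor TNFRSF10B (94.4 to 25.8 CPM) and the inhibitor BIRC3 (42 to 6.29 CPM) fell, and FAS (3.08 to 5.63 CPM) was 1 of the 2 that rose, without a call when either control replicate or vector-labelled replicate 1 was left out (adjusted p = 0.0921, 0.0523 and 0.415), nor by DESeq2 (0.112). Among BCL2 family genes, 7 of 17 rose and 8 fell. BCL2L1, which encodes the survival protein BCL-XL, went from 154 ± 2.37 to 11.2 ± 2.59 CPM.

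**Figure D3:**
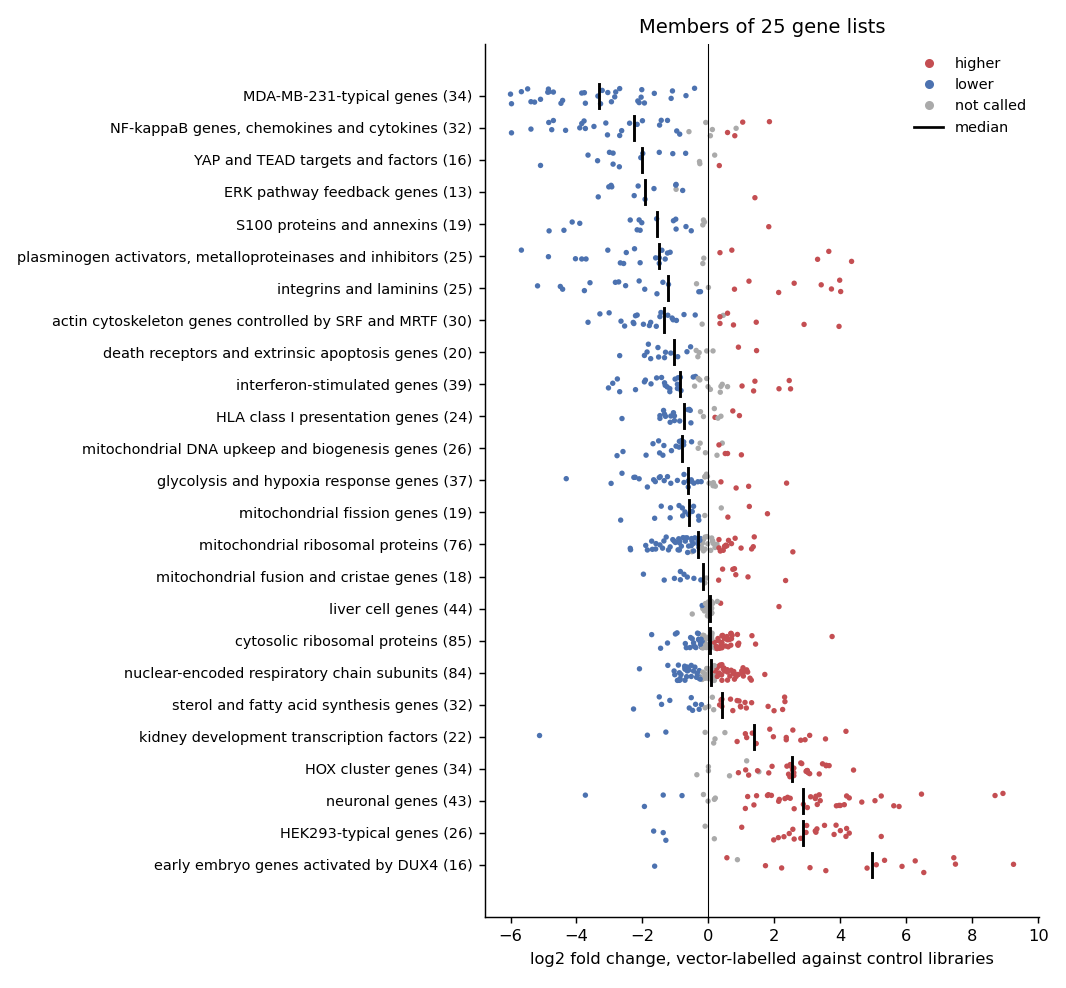
Log2 fold change (vector-labelled against control libraries) of each tested member of 25 gene lists, with the number of members in brackets, calls in colour and the list median as a black bar. Medians run from -3.31 for genes typical of MDA-MB-231 to 4.95 for early embryo genes activated by DUX4, and the liver cell genes gather at 0.04. Lists were chosen with earlier results of these data known. The DUX4 genes could pass the filter through the vector-labelled pair alone, and their median is 3.53 with genes at 0 set to their bound. Genes of the neuronal, HEK293, HOX and kidney lists could likewise pass through the transfected libraries alone.

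Developmental genes that passed the filter on low counts were mostly higher. The HOX, kidney and other developmental lists held 39, 28 and 66 genes in the files, of which 34, 22 and 59 passed. A gene could pass through the transfected libraries alone, so counts and medians of these lists partly describe that selection. HOX cluster genes, which give cells their position along the body axis, rose in 28 of 34 and fell in 0 (1 without control replicate 2, vector-labelled replicate 1 or either ELK3-labelled library), with a median log2 fold change of 2.54. Their summed level was 95.91 and 98.08 CPM in the controls, 437.6 and 454.8 CPM in the vector-labelled and 836.9 and 872 CPM in the ELK3-labelled libraries. HOXB13, a posterior HOXB gene, was at 0.837 and 1.72 CPM in the controls, 27 and 27.4 CPM in the vector-labelled and 10.3 and 9.25 CPM in the ELK3-labelled libraries. It was the 1 HOX gene higher than in the ELK3-labelled libraries, where 27 of 34 were lower in the vector-labelled pair (median -1.02). Genes of all 4 clusters rose, as in HOXA5 (4.25 to 34.2 CPM), HOXC9 (4.67 to 28.1 CPM), HOXD11 (5.42 to 30.1 CPM) and HOXB5 (2.02 to 23.9 CPM). Kidney development factors had 15 higher and 3 lower of 22. FOXD1 (1.81 to 21.5 CPM), EYA1 (0.842 to 15.7 CPM), LHX1 (1.59 to 11.3 CPM) and OSR2 (3.7 to 19.3 CPM) rose, and PAX8, a renal and thyroid factor, fell from 18.2 ± 0.659 to 0.441 ± 0.623 CPM with its antisense neighbour PAX8-AS1, from 62.7 ± 5.28 to 1.55 ± 0.501 CPM, and reads of an antisense pair may not be separable. Of 59 other developmental factors, 36 rose and 12 fell. The neural progenitor factors SOX11 (5.19 to 40.4 CPM), SOX2 (3.17 to 22.8 CPM) and PAX6 (7.82 to 30.7 CPM) rose with TBX3 (9.64 to 89.5 CPM) and MEIS1 (3.19 to 25.6 CPM), and RUNX1 (42.9 to 6.87 CPM), NR2F2 (521 to 82.4 CPM), FOXQ1 (23.4 to 4.13 CPM) and SOX9 (166 to 52.4 CPM) fell.

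Of 57 listed neuronal genes, 12 had 0 counts in both controls against 1 in both vector-labelled libraries, and 43 passed the filter on low counts. Of these 35 rose and 4 fell, with a median of 2.88, and since a gene could pass through the vector-labelled pair alone, these values partly describe that selection. UCHL1, a deubiquitinase abundant in neurons, was at 46.8 and 37 CPM in the controls and 648 and 695 CPM in the vector-labelled libraries. Of the neurofilament genes, NEFL rose from 12.3 ± 2.04 to 74.7 ± 1.1 CPM. Synaptic RIMS1 and UNC13A had 0 counts in both controls and stood at 11.6 and 7.8 and 6.61 and 10.4 CPM in the vector-labelled libraries. Their folds were at least 30.5 and 26.7, computed against 3 counts over both controls. The stathmin gene STMN4 had 1 count over both controls, and its ratio was 104-fold (exact 95% counting interval 18.3 to 4130). L1CAM, a neural adhesion molecule also made by carcinoma cells, fell from 32.9 ± 0.0481 to 2.42 ± 0.313 CPM, and RIMS2 from 54 ± 8.11 to 13.9 ± 2.13 CPM, the other lower genes being MAP1B (725 to 280.4 CPM) and SYN1 (6.89 to 3.88 CPM). SYN1 was not called without either control or vector-labelled replicate 2 (adjusted p = 0.0954, 0.0514 and 0.143), by DESeq2 (0.112) or with library totals (0.0634).

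HEK293 is a human embryonic kidney line that expresses developmental and neuronal genes. Of 26 tested HEK293-typical genes, 21 rose, 3 fell and 2 were not called, with a median of 2.88. A gene could pass the filter on low counts through the transfected libraries alone, so these values partly describe that selection. The listed genes summed to 1089 and 1261 CPM in the controls, 2323 and 2454 CPM in the vector-labelled and 3096 and 3170 CPM in the ELK3-labelled libraries. 1 of the 28 listed genes, PAX2, had 0 counts in both controls and none had 0 in both vector-labelled libraries. GPC3, an oncofetal proteoglycan, rose from 1.8 ± 0.114 to 26.6 ± 0.0178 CPM, LIN28B, an oncofetal RNA-binding protein, from 4.68 ± 1.59 to 54 ± 3.2 CPM, and CKB, brain creatine kinase, from 115 ± 2.87 to 502 ± 35.9 CPM. Against the list's direction, PEG10 (52.7 to 16.9 CPM) and MAP1B (725 to 280.4 CPM) fell, and BEX1 (13.2 and 15.1 CPM) was not called, like 1 other, SALL1. The CDKN2A locus on chromosome 9 is known to be deleted in MDA-MB-231 cells. Reads of its genes were nevertheless counted in the controls, and their source was not tested. CDKN2A, the gene of p16 and ARF, stood at 13.4 and 17.6 CPM in the controls, 200.4 and 236 CPM in the vector-labelled and 175 and 175 CPM in the ELK3-labelled libraries. CDKN2B, beside it, was at 1.05 and 1.29, 37.2 and 36.4 and 19.6 and 18.3 CPM. All 5 tested genes of the locus were higher, the other 3 being MTAP (3.71 to 12.1 CPM) and KLHL9 (6.25 to 32.5 CPM) and CDKN2B-AS1. The list of the locus held 9 genes, and a gene could pass the filter through the transfected libraries alone. RB1, the target of the kinases that p16 restrains, fell from 90.1 ± 11.5 to 18.8 ± 2.02 CPM, and CCND1 from 424 ± 4.0 to 49.9 ± 2.44 CPM. Their list of G1 cyclins, kinases, inhibitors and RB did not fall as a whole. It had 7 higher, 6 lower and 5 not called of 18, with a median log2 fold change of 0.12. Whether the vector-labelled cells are of another line, or hold a share of cells of another line, was not tested.

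A set of genes was highest in the vector-labelled libraries among the 3 pairs. DHRS2, a reductase first found in HepG2 cells and inducible by histone deacetylase inhibitors, was at 32 and 28.4 CPM in the controls, 1265 and 1428 CPM in the vector-labelled and 39.1 and 49.97 CPM in the ELK3-labelled libraries. No pair of libraries came near the vector-labelled one, and the log2 fold change against control was 5.48 ± 0.12 (adjusted p = 3.44e-28). The highest log2 fold changes among called genes of 20 CPM or more included RFPL4A (0.639 to 38 CPM), HIST1H2BG (0.959 to 51.2 CPM), LINC01021 (1.06 to 43.8 CPM), ZNF667-AS1 (1.5 to 55 CPM) and CASC9 (1.8 to 60.2 CPM), of which the last 3 are noncoding. ZNF667-AS1 and CASC9 were also at 19.7 and 24 and at 19.7 and 24.1 CPM in the ELK3-labelled libraries. Several others had 1 to 3 counts over both controls. FLRT3, an adhesion protein of fibroblast growth factor signalling, had a ratio of 122-fold (exact 95% counting interval 41.4 to 592) and WDR63, a dynein subunit, of 77.5-fold (exact 95% counting interval 26.3 to 378). The noncoding LINC01511 and LINC00624 had ratios of 137-fold (exact 95% counting interval 37.5 to 1130) and 119-fold (exact 95% counting interval 32.8 to 991). CHRM3, a muscarinic receptor, rose from 0.529 ± 0.14 to 23.5 ± 1.27 CPM, and CEACAM22P and LINC01554 rose from 0.424 to 24.2 and from 0.639 to 23.2 CPM.

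Early embryo genes, those that the factor DUX4 activates at the first cell divisions, were among them. Of 45 listed genes in the files, 27 had 0 counts in both controls against 9 in both vector-labelled libraries, and 16 passed the filter on low counts. A gene could pass through the vector-labelled pair alone, so the 14 higher and 1 lower among the 16 and their median (4.95, or 3.53 with genes at 0 set to their bound) describe that selection. The 45 genes summed to 124.8 and 126.7 CPM in the controls, 302.6 and 325.8 CPM in the vector-labelled and 115.4 and 128.6 CPM in the ELK3-labelled libraries. TRIM43 was at 0.418 and 0 CPM in the controls, 18.4 and 17.4 CPM in the vector-labelled and 0.318 and 0.106 CPM in the ELK3-labelled libraries. TRIM43B had 0 counts in both controls and 13.2 and 11.4 CPM in the vector-labelled pair, at least 38.7-fold higher. RFPL4AL1, with 1 count in the controls, had a ratio of 217-fold (exact 95% counting interval 38.7 to 8620). TRIM43 with TRIM43B, and RFPL4A with RFPL4AL1, are near-identical copies that can share reads, so each pair is best read together. KHDC1 fell from 27 ± 5.33 to 8.96 ± 2.9 CPM, and without control replicate 2 the lower genes were 2. ZSCAN4 and LEUTX, early genes of the same programme, were too low to test.

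In total 11 genes had 0 counts in both controls and at least 5 CPM in both vector-labelled libraries, and 1 gene (LOC100128885) showed the reverse, at least 31.3-fold lower. Besides TRIM43B, RIMS1, UNC13A and the uncharacterised LOC729950 they included FSTL4, ABCB5, MGAT4C, HSPB3, MUC19 and HMGCLL1, at least 16.6- to 34.1-fold higher. FSTL4, a follistatin-like protein, was at 11.5 and 10.2 CPM, ABCB5, a drug-efflux transporter, at 5.43 and 11.2 CPM and the small heat shock gene HSPB3 at 5.58 and 5.8 CPM.

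Replication-type histone genes, whose transcripts normally lack a poly(A) tail, rose in 14 of 30 tested and fell in 9, and against the ELK3-labelled libraries 18 were higher and 2 lower. HIST2H2BE was at 5.23 and 4.73 CPM in the controls, 80.1 and 82 CPM in the vector-labelled and 6.68 and 6.91 CPM in the ELK3-labelled libraries. HIST1H2BG, HIST1H2AE and HIST1H3D followed the same order of pairs, HIST1H2BG (0.959 to 51.2 CPM), HIST1H2AE (2.54 to 51.4 CPM) and HIST1H3D (1.07 to 30.5 CPM). Others fell, HIST1H2AJ (28.4 to 2.98 CPM), HIST1H1E (44.5 to 11.3 CPM) and HIST1H2AI (26.7 to 9.34 CPM). Histone genes are near-identical copies and their reads may be split between them. Of 23 listed noncoding RNAs, 10 rose and 6 fell. Among the higher ones were SNHG12 (42 to 210.0 CPM), SNHG1 (306 to 988 CPM), SNHG15 (32.8 to 90.4 CPM) and EPB41L4A-AS1 (35.1 to 196 CPM), which host small nucleolar RNAs. The lower ones included LINC00657 (245 to 38.5 CPM). SNHG1 was at 305 and 307, 985 and 990.5 and 228 and 233 CPM in control, vector-labelled and ELK3-labelled libraries. Heat shock genes split, with 7 higher and 8 lower of 17. The strictly inducible HSPA6 was at 1.88 and 1.94 CPM in the controls, 27 and 25.6 CPM in the vector-labelled and 0.954 and 1.28 CPM in the ELK3-labelled libraries, whereas the abundant chaperones HSP90AA1 (6590 to 3215 CPM) and HSPD1 (921 to 519.6 CPM) fell. Of 46 cancer-testis antigens in the files, 24 had 0 counts in both controls against 14 in both vector-labelled libraries. The 12 that passed the filter could do so through the vector-labelled pair alone, and their 8 higher and 2 lower partly describe that selection, with PRAME (8.38 to 119 CPM), TEX15 (2.65 to 45.2 CPM) and TEX14 (2.33 to 51.1 CPM) and, against them, XAGE1B (444 to 9.42 CPM). Without either control library or vector-labelled replicate 1 the lower ones were 1. XAGE1B and XAGE1E are copies of 1 gene family and fell together, the latter from 124 ± 3.35 to 2.4 ± 0.559 CPM.

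**Figure D4:**
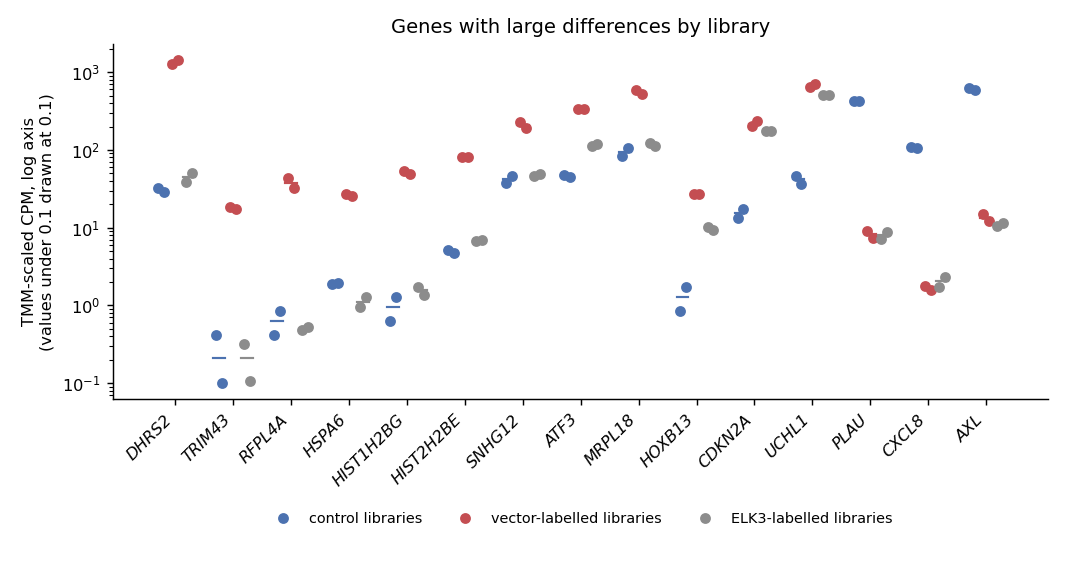
TMM-scaled CPM on a log axis in each library for 15 genes described in the text, points being libraries and bars the mean of each pair. DHRS2, TRIM43, RFPL4A, HSPA6 and the 2 histone genes are high in the vector-labelled libraries and low in both other pairs, and PLAU, CXCL8 and AXL are high in the controls alone.

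Mitochondrial genes were examined by function, since the title of the series names mitochondrial dynamics. Fission genes, which divide the organelle, fell in 14 of 19 and rose in 3 (median -0.60). SLC25A46, an outer membrane protein of mitochondrial shape, was at 55.2 and 59.6 CPM in the controls, 18.5 and 18.6 CPM in the vector-labelled and 90 and 65.7 CPM in the ELK3-labelled libraries, and the vector-labelled pair was the lowest. The fission GTPase DNM1L fell from 67 ± 0.421 to 54.6 ± 1.77 CPM and its receptors FIS1 (45.8 to 26.9 CPM) and MIEF1 (88.7 to 54.1 CPM). DNM1L was not called without vector-labelled replicate 1 (adjusted p = 0.0881) or by DESeq2 (0.0584), with library totals (0.172) or with the filter of 10 CPM in 2 libraries (0.0949). INF2 (18.5 to 2.98 CPM), MARCH5 (77.8 to 34.8 CPM) and SPIRE1 (82.2 to 36.6 CPM) fell too, and DDHD2 (10.1 to 35.1 CPM), PLD6 (23.3 to 55.2 CPM) and MTFR1 (23 to 34.9 CPM) rose. Against the ELK3-labelled libraries 15 of 19 fission genes were lower and 4 higher. Fusion and cristae genes were mixed, 7 higher and 9 lower of 18. The 2 outer membrane fusion GTPases moved in opposite directions. MFN2 was at 75.1 and 76.3 CPM in the controls and 133 and 129 CPM in the vector-labelled libraries (log2 fold change 0.79 ± 0.10), and MFN1 at 33.9 and 39.6 and 17 and 19.2 CPM (-1.03 ± 0.16). OPA1, which fuses the inner membrane, fell from 102 ± 1.74 to 56.3 ± 5.17 CPM, and its proteases YME1L1 (100.4 to 39.5 CPM) and OMA1 (24.1 to 13.4 CPM) fell with the scaffold STOML2 (335 to 85.9 CPM).

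Mitophagy genes, which mark and remove damaged mitochondria, rose in 13 of 25 and fell in 7. The kinase PINK1 rose from 46.5 ± 12.2 to 130.1 ± 3.77 CPM, and CALCOCO2 (86.9 to 232 CPM), NIPSNAP1 (22 to 74.1 CPM), ULK1 (30.8 to 55.5 CPM) and BNIP3L (77.7 to 128 CPM) rose, while OPTN (158 to 53.6 CPM), GABARAPL2 (85.8 to 42.9 CPM) and BNIP3 (102 to 66.7 CPM) fell. Genes for mitochondrial DNA upkeep and biogenesis fell in 17 of 26 and rose in 4 (median -0.80). SIRT3, the main mitochondrial deacetylase, was at 188 and 153 CPM in the controls, 28.2 and 28.4 CPM in the vector-labelled and 64.6 and 70.7 CPM in the ELK3-labelled libraries. ESRRA, an orphan receptor that drives mitochondrial genes, was at 655 and 622, 91.4 and 96.5 and 386 and 407 CPM in the same order, and TFAM, which packs mitochondrial DNA, fell from 263 ± 26.2 to 94.2 ± 3.18 CPM. In SIRT3 and ESRRA the vector-labelled pair was the lowest. The 4 that rose were MGME1 (37.2 to 46.3 CPM), PPARGC1A (23.1 to 46.1 CPM), RRM2B (17.3 to 26.1 CPM) and TFB1M (33.7 to 47.9 CPM). MGME1 was not called without control replicate 2 or vector-labelled replicate 1 (adjusted p = 0.246 and 0.346), by DESeq2 (0.129) or without a filter (0.0808), and RRM2B not without vector-labelled replicate 2 (0.0579). Nuclear-encoded respiratory chain subunits were nearly balanced, 36 higher and 29 lower of 84 (median 0.07), with COX7B (177 to 578 CPM), NDUFA6 (143 to 352 CPM) and SDHB (56.9 to 119 CPM) and, the other way, SDHD (40.3 to 9.34 CPM), NDUFS1 (41.4 to 17.7 CPM) and COX8A (716 to 348 CPM). Mitochondrial ribosomal proteins had 41 lower and 17 higher of 76 (median -0.31). MRPL18 rose most, from 83.9 and 106 CPM to 588 and 530.3 CPM, and was at 123.4 and 113 CPM in the ELK3-labelled libraries, and MRPL33 (234 to 45.6 CPM), MRPL16 (116 to 22.5 CPM) and MRPL27 (91.2 to 24.4 CPM) fell most.

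Several of the lower mitochondrial genes carry the ETS core sequence CCGGAAGT in the promoter. Promoters (250 bases before to 50 after the start, RefSeq, GRCh38.p14) were matched for 11350 of 13813 tested protein-coding genes, and CCGGAAGT was sought on both strands. It was found in 935 of 11350 (8.24%) and in 345 of 2275 (15.2%) of the genes at least 2-fold lower than in the controls. Among genes with a mean of at least 20 CPM the shares were 656 of 6529 (10%) and 259 of 1429 (18.1%). Median GC content was 65% over all and 66% in the lower genes. For the genes at least 2-fold higher than in the controls 2453 of 3070 promoters were matched (79.9%). This lies just under the cut of 80% used here for sets and lists, so no share is given for them. Against the ELK3-labelled libraries, 258 of 1159 lower genes (22.3%) and 32 of 1239 higher genes (2.58%) held the sequence. These sets were unlike in other ways, with a median GC content of 65.3% and a median level of 23.3 CPM in the lower genes, and 61.7% and 8.89 CPM in the higher ones, beside 26.8 CPM over all. The part of these in the shares was not tested. The AP-1 sequence TGANTCA, sought in the same windows, was in 517 of 11350 (4.56%) and in 128 of 2275 genes lower than in controls (5.63%). The CArG box was in 1.12% of all and 1.05% of the lower genes. These shares are a description over genes, which are not independent of each other, and no factor's binding was measured.

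Of 23 lists with at least 80% of promoters matched, 7 held the ETS core at a share above that of all genes, 8 below it and 8 held none. Above that share were biogenesis genes with 6 of 23 (4 lower, 0 higher) and fusion and cristae genes with 4 of 17 (4 lower, 0 higher). So were mitochondrial ribosomal proteins with 11 of 71 (9 lower, 1 higher) and proteasome subunits with 7 of 36 (5 lower, 1 higher). Mitophagy genes with 2 of 20 (2 lower, 0 higher) and chaperones of the endoplasmic reticulum with 2 of 22 (0 lower, 1 higher) were above it too. The last above it was the group of ternary complex factors, SRF and its cofactors with 1 of 6 (1 lower, 0 higher). Below it were mitosis and spindle genes with 3 of 40 (1 lower, 0 higher) and glycolysis and hypoxia genes with 2 of 33 (0 lower, 0 higher). Actin cytoskeleton genes with 1 of 27 and receptor tyrosine kinases and ligands with 1 of 35 were also below it. None of 29 TGF-beta and BMP genes, 23 NRF2 genes or 11 ERK feedback genes held the sequence. The 250 bases before the start are shown for 3 mitochondrial genes with large decreases and for ELK4, a ternary complex factor that fell, with CCGGAAGT or its reverse complement in capitals.
SIRT3, chr11:236932-237181, minus strand: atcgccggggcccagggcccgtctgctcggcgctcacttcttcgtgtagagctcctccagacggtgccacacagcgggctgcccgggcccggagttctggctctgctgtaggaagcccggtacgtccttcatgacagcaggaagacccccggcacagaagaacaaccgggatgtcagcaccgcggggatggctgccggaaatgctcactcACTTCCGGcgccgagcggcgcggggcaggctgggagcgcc
STOML2, chr9:35103196-35103445, minus strand: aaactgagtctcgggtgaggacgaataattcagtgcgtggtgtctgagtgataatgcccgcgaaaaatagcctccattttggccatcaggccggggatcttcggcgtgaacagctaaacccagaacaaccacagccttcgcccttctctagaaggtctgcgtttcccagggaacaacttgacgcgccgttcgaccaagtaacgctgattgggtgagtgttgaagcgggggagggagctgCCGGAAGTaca
SLC25A46, chr5:110738757-110739006, plus strand: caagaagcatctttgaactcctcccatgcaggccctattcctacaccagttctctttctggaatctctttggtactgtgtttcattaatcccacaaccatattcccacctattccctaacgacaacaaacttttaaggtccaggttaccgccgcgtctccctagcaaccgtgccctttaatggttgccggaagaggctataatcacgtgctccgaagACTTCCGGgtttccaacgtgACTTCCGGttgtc
ELK4, chr1:205632012-205632261, minus strand: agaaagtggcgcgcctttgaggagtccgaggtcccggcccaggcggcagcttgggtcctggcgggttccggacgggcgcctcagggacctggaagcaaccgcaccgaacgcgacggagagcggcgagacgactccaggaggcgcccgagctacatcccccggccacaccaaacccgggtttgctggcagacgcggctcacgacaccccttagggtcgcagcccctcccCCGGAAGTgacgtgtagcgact

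The match lies 40 bases before the start of SIRT3, 11 before that of STOML2, 22 before that of ELK4 and, in SLC25A46, which has 2 matches, 33 before the start for the one farther from it. SIRT3 shares its promoter region with PSMD13, a proteasome gene that reads in the other direction and fell from 201 ± 2.94 to 73.2 ± 2.82 CPM. Among listed genes with the sequence, not all fell, and DNAJB9 (16.3 to 42.3 CPM), MEIS1 (3.19 to 25.6 CPM) and TCF7 (16.2 to 37.3 CPM) rose.

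**Figure D5:**
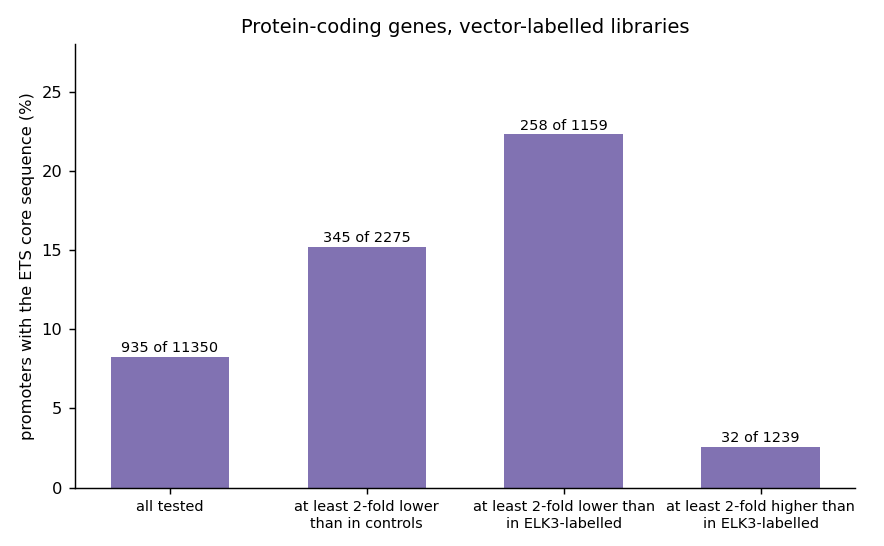
Percent of promoters of tested protein-coding genes (bars, with numbers of genes) that hold the ETS core sequence, for all tested genes and for genes at least 2-fold lower or higher in the vector-labelled libraries. The share is 8.24% over all, 15.2% in genes lower than in controls, and 22.3% and 2.58% in genes lower and higher than in the ELK3-labelled libraries.

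In metabolism, glycolysis and hypoxia response genes fell in 24 of 37 and rose in 4, which were ALDOC (4.35 to 7.68 CPM), LDHB (531 to 692 CPM), SLC16A1 (64.5 to 333 CPM) and SLC2A3 (39.4 to 92.2 CPM). ALDOC was not called without control replicate 1 or vector-labelled replicate 1 (adjusted p = 0.0792 and 0.201) or by DESeq2 (0.0635). PKM, pyruvate kinase, was at 1293 and 1217 CPM in the controls and 253 and 271 CPM in the vector-labelled libraries. The lactate exporter SLC16A3 (MCT4) fell from 113 ± 16.7 to 5.69 ± 0.156 CPM, and its relative SLC16A1 (MCT1) rose from 64.5 ± 0.829 to 333 ± 3.61 CPM. VEGFA (175 to 28.1 CPM), HK1 (153 to 32.7 CPM), PFKP (214 to 49.9 CPM), LDHA (1111 to 471 CPM) and HIF1A (186 to 84.5 CPM) fell, and the lactate dehydrogenase subunit LDHB rose from 531 ± 20.2 to 692 ± 34.2 CPM. Sterol and fatty acid synthesis genes rose in 18 of 32 and fell in 10. The higher ones included the cholesterol enzymes NSDHL (24.9 to 125 CPM), MVD (9.0 to 45.2 CPM), SQLE (23.3 to 111 CPM) and HMGCS1 (63.9 to 254 CPM). NRF2, the regulator of antioxidant genes, encoded by NFE2L2, fell from 147 ± 4.29 to 47.4 ± 1.35 CPM, and 16 of 27 genes in its list fell and 8 rose. NQO1, its standard target, was at 165 and 162 CPM in the controls and 12.2 and 11.2 CPM in the vector-labelled libraries, and ME1 (20.5 to 49.3 CPM), GSTP1 (750.2 to 1493 CPM) and GCLC (19.4 to 36.6 CPM) rose. Scavengers of superoxide and peroxide were split, 10 higher and 11 lower of 26. The selenoprotein GPX4 (151 to 295 CPM) rose with PRDX4 (64.3 to 203 CPM) and SOD1 (385 to 748 CPM), and GPX8 (65.5 to 9.34 CPM) and GPX1 (211 to 96.3 CPM) fell. ATF4 targets and serine synthesis genes had 12 higher and 9 lower of 28, with PHGDH (17.5 to 161 CPM), ALDH1L2 (2.01 to 39.95 CPM) and AARS (111 to 345 CPM) against TRIB3 (27.8 to 5.2 CPM) and CEBPB (177 to 50.5 CPM). Chaperones of the endoplasmic reticulum rose in 13 of 23 and fell in 5 (3 without vector-labelled replicate 1), the lower being ATF6 (99.5 to 60.2 CPM), EDEM1 (23.4 to 12.8 CPM), HYOU1 (139 to 112 CPM), MANF (214 to 154 CPM) and PDIA6 (412 to 354 CPM) and the higher including XBP1 (87.2 to 222 CPM), HSPA5 (1525 to 2166 CPM) and CALR (817 to 1367 CPM). Of the lower ones HYOU1 and PDIA6 were not called without vector-labelled replicate 1 (adjusted p = 0.156 and 0.0691) or with library totals (0.0956 and 0.339), nor PDIA6 with the filter of 10 CPM in 2 libraries (0.177). Proteasome subunits fell in 26 of 41 and rose in 12, most in the assembly chaperone PSMD5, at 75.9 and 83.7 CPM in the controls and 2.94 and 4.2 CPM in the vector-labelled libraries.

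Cell cycle genes were balanced against control. Mitosis and spindle genes rose in 18 and fell in 19 of 48 (median -0.07), and against the ELK3-labelled libraries 33 were higher and 11 lower (median 0.58). BIRC5, the survivin gene, was at 249 and 240.0 CPM in the controls, 1124 and 1154 CPM in the vector-labelled and 309 and 304 CPM in the ELK3-labelled libraries. TOP2A, the topoisomerase of dividing cells, rose from 2344 ± 53.2 to 4504 ± 283 CPM, and AURKA from 332 ± 20.8 to 552 ± 4.52 CPM. MKI67 fell from 652 ± 36.4 to 349 ± 5.74 CPM, and CCNB1 (254 to 150.4 CPM), FOXM1 (100.5 to 52.3 CPM) and NUF2 (149 to 22.1 CPM) fell. DNA replication genes rose in 18 and fell in 14 of 49. CDC6 (83.5 to 314 CPM) rose, and MCM3 (278 to 97 CPM) and DUT (196 to 57.4 CPM) fell.

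Measured by the change in mean CPM rather than the ratio, the largest losses were in the genes that follow. TUBB, a beta-tubulin, fell from 7236 ± 310.0 to 1898 ± 76.6 CPM, HSP90AA1 from 6590 ± 902 to 3215 ± 209 CPM, the metallothionein MT2A from 3285 ± 307 to 339 ± 25 CPM and the calcium-binding protein S100A6 from 2432 ± 35.5 to 84.8 ± 10.5 CPM. Among the largest gains were TOP2A, RPS4X, from 1212 ± 62.3 to 3275 ± 104 CPM, and DHRS2. Cytosolic ribosomal protein genes as a list had 33 higher and 23 lower of 85 and a median of 0.06, beside 0.05 over all genes, and their processed copies elsewhere in the genome can take reads.

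By chromosome, 15108 of the tested genes had a position in RefSeq. Medians of the log2 fold change ran from -0.33 on chromosome 14 (476 genes, 25.6% higher and 46.4% lower) to 0.52 on chromosome 22 (385 genes, 52.7% higher and 19.2% lower). Chromosome X (547 genes) had a median of 0.48 and chromosome 16 (677 genes) of 0.31, while chromosomes 20, 3 and 2 stood at -0.27, -0.24 and -0.23. The same medians against the ELK3-labelled libraries were -0.08 on chromosome 14, 0.05 on 22 and 0.08 on X. Copy number was not measured.

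Markers of other cell types were read in the same libraries. Liver cell genes were detected in every library, with ALB, serum albumin, at 3723 and 3822 CPM in the controls and 3986 and 3717 CPM in the vector-labelled libraries. The 44 genes summed to 17600 and 18110 CPM in the controls, 17680 and 18960 CPM in the vector-labelled and 14290 and 14980 CPM in the ELK3-labelled libraries, none of them at 0. Of the 44, 41 were not called against control, beside 72.3% of all tested genes that were called. The 3 called were ASGR1 (2.13 to 9.29 CPM) and CPS1 (102 to 132 CPM), which rose, and SAA1, which fell from 252 ± 5.87 to 221 ± 9.36 CPM and was not called without control replicate 2 or either vector-labelled library (adjusted p = 0.101, 0.057 and 0.192), without ELK3-labelled replicate 1 (0.0501) with the replicate block (0.0617), with the 4 libraries alone (0.0831), by DESeq2 (0.0785), with library totals (0.567) or with the filter of 10 CPM in 2 libraries (0.334). With library totals in place of TMM, 20 of the 44 were called higher and 0 lower, so this count depends on the scaling. Lymphocyte and NK cell genes were near equal, 3 higher, 0 lower and 20 not called of 23, with sums of 437.5 and 443.2 CPM in the controls and 481 and 501.2 CPM in the vector-labelled libraries. Those that rose included NCAM1, also a neuronal gene, from 10.4 ± 2.0 to 45.3 ± 2.99 CPM, and CD247 (19.2 to 25.1 CPM). CD247 was not called without either control or vector-labelled replicate 1 (adjusted p = 0.166, 0.0593 and 0.251), by DESeq2 (0.137) or without a filter (0.0842). Luminal breast genes split, 6 higher and 4 lower of 12. The lower were CLDN4 (109.9 to 3.75 CPM), ELF3 (4.14 to 0.947 CPM), EPCAM (12.8 to 3.12 CPM) and KRT19 (44.2 to 31.8 CPM). The higher ones included KRT8 and XBP1, with values given above. PGR had 3 counts over both controls, and its ratio was 23.4-fold (exact 95% counting interval 7.76 to 116). ESR1, the oestrogen receptor whose absence defines the subtype, was at 18.8 and 20.9 and 20.7 and 24.8 CPM and was not called. Without control replicate 1 the lower lymphocyte genes were 1. Endothelial genes had 1 higher and 2 lower of 8, the lower being 1 without any 1 of the 4 libraries and the higher 0 without vector-labelled replicate 1, and fibroblast genes 5 higher and 1 lower of 10. The endothelial ones were VWF (0.427 to 2.74 CPM), higher, and ESAM (30.7 to 6.18 CPM) and KDR (3.6 to 1.68 CPM), lower, KDR losing its call without any 1 of the 4 libraries (adjusted p = 0.0561 to 0.185), by DESeq2 (0.137) or with library totals (0.0639), and the fibroblast ones ACTA2 (6.57 to 18.1 CPM), COL1A1 (13.6 to 37.1 CPM), COL3A1 (4.66 to 15.4 CPM), FBLN1 (8.92 to 76.3 CPM) and LUM (1.27 to 5.09 CPM), higher, and S100A4 (386 to 94.7 CPM), lower. The source of the liver and lymphocyte transcripts was not tested. In RNA of whole cultures fewer cells of a type and less RNA per cell cannot be told apart.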

How the data were processed

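RNA of 6 cultured-cell libraries was sequenced with a Quant-Seq kit, which reads transcript ends. The deposited files hold raw read counts per line, each named by a gene symbol, per the file headers. The submitters' processing notes name Bowtie2, edgeR and the hg19 build, without versions or roles. The counting tool and annotation are not given in the sources used here. Counts of 286 symbols on 1561 lines were summed, leaving 24462 symbols from 25737 lines. Groups follow the sample titles. All 6 libraries entered 1 fit (edgeR 4.0.16 in R 4.3.3, filterByExpr, TMM, robust quasi-likelihood, 3 residual degrees of freedom), and p-values were Benjamini-Hochberg adjusted over 15386 genes, with 0.05 as the threshold. The fit was also run on simulated counts in which few genes changed, as many up as down. In these data most genes were called, so that run does not test the scaling used here.

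A count of 0 in 1 of the 4 libraries allows up to 0.4498 to 0.6142 CPM, at 3 counts. Such limits, and the intervals of low counts, hold the error of counting alone. Folds against a group at 0 use 3 counts over the group. A group with 1 to 3 counts gets a ratio with an exact interval. Genes were named as ELK3 and the tested members of its group, the 15 called genes of 20 CPM or more with the highest log2 fold change and the 15 with the lowest, the 10 largest gains and losses of CPM, up to 6 called members of a list with 5 CPM or more, members of central role, and genes present in 1 group. Some of the named genes are a choice among those. Members and lists were chosen with earlier results of these data known. Promoters came from RefSeq (GRCh38.p14), and the restriction to protein-coding genes was chosen after seeing how many promoters matched. Alternatives were library totals, DESeq2 1.42.0 size factors and test, limma 3.58.1 (voom), other filters, 4 libraries alone, a replicate block, symbols on several lines left out, and each library left out. XIST and TSIX, and some other named genes and 1 list, are not reported here.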

Additional observations from a re-analysis of the deposited data

How the results depend on the processing

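Of 105 alternative values of the 7 main results, 104 kept their direction and stayed within 1.5 times. The exception was the number of genes at least 2-fold higher than in controls, 2386 in place of 3649 when at least 10 CPM in 2 libraries was required, a filter that tests fewer genes. With that filter 2220 genes were at least 2-fold lower, in place of 2984, so the excess of higher genes was smaller. Leaving out 1 library gave 5187 to 5784 genes higher and 5073 to 5493 lower than in controls, and an ELK3 log2 fold change of 2.46 to 2.57. Library totals without TMM moved the median log2 fold change by 0.13 and gave 6351 genes higher and 4838 lower. The near balance of higher and lower genes therefore depends on the scaling. Replicate numbers did not pair the libraries (correlations of deviations -0.056, 0.033 and -0.00066). With the replicate block 5650 genes were higher and 5407 lower. Of 5212 alternative values of 350 named genes, 75 (in 19 genes) lost a call, 3 gained one and 3 changed sign, all in ALB, which was not called. Without a filter on low counts ALB was at -0.02, and with 1 library left out it ran from -0.03 to 0.06. Of 1710 alternative list counts, 57 moved by over 1.5 times. The cause was not tested. The share of promoters with the ETS core among lower genes, recomputed after seeing the data, was 14.8% to 16.4%.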
